A study of Mus musculus with 24 samples.

Results

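The genes described here are Dmbt1, Olfm4, Ltf, Lcn2, Pigr, Ido1, Aoc1, Fgb, Upk3a and Tesc, 10 of the 13485 genes measured. Most of them encode mucosal defence proteins, secreted or luminal enzymes or surface proteins. They were chosen by their measured signals in these arrays, as high in normal CD29+CD24+ mammary cells and lost in tumours, so their levels in tumour against normal cells and across the normal populations are given as a description with no test. Only the comparisons between populations inside tumours are not named in that choice, and these were tested, although the tumour signals they use entered it. The tumour samples came from 5 separate mammary adenocarcinomas of C57BL6/J mice of genotype Apc+/1572T, which carry 1 altered allele of Apc, a scaffold of the complex that degrades beta-catenin. The normal samples came from 3 separately isolated pools of mammary glands of C57BL6/J Apc+/+ mice, so a normal sample is a mixture of animals. No gland of a mutant mouse without a tumour is among the arrays. All mice were kept under specific-pathogen-free conditions. From each tumour (A to E) and pool (F to H), equal numbers of cells of 3 populations were sorted and hybridised to an Affymetrix array: Lin-CD29hiCD24+, the gate the study used for stem cells; Lin-CD29+CD24+, its more differentiated counterpart; and whole Lin- cells, from which cells with lineage markers had been removed. This gave 5 tumour arrays and 3 normal arrays per population, 24 in all, and the number of arrays limits the precision of every value below. Values are log2 signals per probe set, on which a difference of 1 is a 2-fold difference. The lowest 40% of all signals, up to 2.83, are called the low band here, and in it an expressed gene cannot be told from background. All 10 genes passed the filter on low values (over 2.83 in at least 3 arrays).

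Mammary luminal cells line the ducts and alveoli and face a lumen that is open to the outside, and they share with gut, airway and salivary epithelium a set of proteins that bind bacteria, withhold iron or carry antibodies into the secretion. Lactoferrin (Ltf) and the antibody transporter Pigr are known from milk, while lipocalin 2 (Lcn2) and Dmbt1 are known from many mucosal surfaces. Ltf, Lcn2 and Olfm4 are also granule genes of neutrophils, so a signal from them can have an epithelial or a myeloid source. In sorted bulk cells, fewer cells of a type and less RNA per cell cannot be told apart.

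The normal gates carried the markers their names call for. The mean signal of 9 basal markers (Krt5, Krt14, Acta2 and others) ran from 12.97 to 13.21 in normal CD29hiCD24+ arrays, against 3.38 to 3.72 in normal CD29+CD24+ arrays. That of 8 luminal markers (Krt8, Krt18, Cldn3 and others) ran from 9.91 to 12.42, against 14.10 to 14.22. The normal CD29hiCD24+ gate also carried endothelial markers. The mean of 6 ran from 7.21 to 10.15 there, against 3.395 to 3.643 in normal CD29+CD24+ and 2.815 to 3.894 in tumour CD29hiCD24+ arrays. The part of such cells in the CD29hiCD24+ differences below was not tested. In tumours the basal markers parted the gates much less, with means from 9.61 to 11.24 in CD29hiCD24+ arrays, against 9.20 to 9.59 in CD29+CD24+ arrays. For the 8 luminal markers the median CD29hiCD24+ minus CD29+CD24+ difference was -1.97 in tumours and -2.20 in normal glands. However, 0 of the 8 were called lower between the tumour gates (1.94% of all genes), and 5 between the normal gates (25.3% of all genes). The normal CD29hiCD24+ array of pool F stood apart from those of G and H: its mean over 7 macrophage and dendritic markers was 9.48, against 3.50 and 3.21, and its luminal mean was 9.91, against 12.42 and 12.18. Differences that moved by over 1 without it are given both ways.

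The label "high in normal CD29+CD24+ cells and lost in tumours" held in part. Dmbt1, Fgb, Ido1, Aoc1 and Tesc had every tumour CD29+CD24+ array below every normal one, 5 of 10, where 26.7% of all genes did so. Olfm4, Ltf, Lcn2 and Upk3a overlapped, since tumour A, and for Lcn2 and Upk3a tumour B too, lay within or above the normal range. Pigr ran the other way. Tumours A, B and C lay above its normal signals, which were low in all 3 populations.

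The start-site regions of 8 of the 10 genes were found in a RefSeq promoter table of build GRCm38.p6, as windows from 250 bases before to 50 after the start. Dmbt1 and Ido1 are named only. The 5 windows printed are shown because their genes span the patterns below: Fgb and Ltf were lower in most tumours, Lcn2 stayed high, Pigr was highest in tumours A to C, and Tesc appeared in 1 tumour. Each is written 5′ to 3′ along the gene, and capitals mark motif matches. Fgb lies at chr3:83049814-83050113 on the minus strand, Ltf at chr9:111019042-111019341 on the plus strand, Lcn2 at chr2:32387690-32387989 on the minus strand, Pigr at chr1:130826434-130826733 on the plus strand and Tesc at chr5:118027493-118027792 on the plus strand.
Fgb: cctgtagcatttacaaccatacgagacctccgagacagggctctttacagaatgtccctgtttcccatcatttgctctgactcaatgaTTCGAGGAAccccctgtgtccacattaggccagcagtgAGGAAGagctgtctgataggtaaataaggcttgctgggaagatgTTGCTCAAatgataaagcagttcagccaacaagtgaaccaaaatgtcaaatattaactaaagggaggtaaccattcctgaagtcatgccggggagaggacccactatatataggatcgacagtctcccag
Ltf: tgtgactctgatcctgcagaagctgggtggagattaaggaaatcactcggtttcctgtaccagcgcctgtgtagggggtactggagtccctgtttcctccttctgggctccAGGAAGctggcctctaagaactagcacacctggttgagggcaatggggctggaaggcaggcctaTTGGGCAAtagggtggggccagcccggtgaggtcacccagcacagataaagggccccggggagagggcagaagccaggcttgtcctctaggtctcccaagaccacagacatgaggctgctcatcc
Lcn2: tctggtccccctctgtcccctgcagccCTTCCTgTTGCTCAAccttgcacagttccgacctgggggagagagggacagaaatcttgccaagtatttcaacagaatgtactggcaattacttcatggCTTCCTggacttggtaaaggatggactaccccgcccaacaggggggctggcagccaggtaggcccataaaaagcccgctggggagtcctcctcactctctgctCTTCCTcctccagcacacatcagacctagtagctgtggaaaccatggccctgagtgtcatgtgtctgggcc
Pigr: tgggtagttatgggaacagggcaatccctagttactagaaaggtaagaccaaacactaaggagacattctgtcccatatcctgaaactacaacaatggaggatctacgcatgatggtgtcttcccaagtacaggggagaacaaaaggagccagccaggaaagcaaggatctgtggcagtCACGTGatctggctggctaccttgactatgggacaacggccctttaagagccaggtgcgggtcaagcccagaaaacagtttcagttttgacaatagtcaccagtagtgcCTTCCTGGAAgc
Tesc: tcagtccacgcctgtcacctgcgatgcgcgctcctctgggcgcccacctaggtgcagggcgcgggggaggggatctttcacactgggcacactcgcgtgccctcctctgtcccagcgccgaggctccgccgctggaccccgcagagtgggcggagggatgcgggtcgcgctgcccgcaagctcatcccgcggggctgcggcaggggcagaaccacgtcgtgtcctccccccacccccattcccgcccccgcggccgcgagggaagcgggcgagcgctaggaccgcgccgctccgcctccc

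6 motifs were searched, on both strands except for the TATA motif, which was read on the gene's strand. The C/EBP pattern TTGCNNAA was found in 6 of the 9 windows (Fgb, Ltf, Lcn2, both Aoc1 starts and Upk3a), and 10.8% of all 32851 windows in the table hold it. The ETS core AGGAAG, the family of the luminal regulators Elf5 and Ehf, was found in 5 of 9 windows against 35.4% of all. Lcn2 has 3 of these ETS matches. The STAT pattern TTCNNNGAA was found in 2 of 9 against 8.3%, the TATA motif TATAA in 2 of 9 (Olfm4 and the downstream Aoc1 start) against 17.5%, and the NF-kB motif in the Olfm4 window alone against 4.51%. Pigr held the E-box CACGTG, from base -71 to base -66, which 7.15% of all windows hold, and its STAT and ETS matches overlap each other. Tesc held none of the 6. Its window is 74.7% G and C with 36 CpG sites, where the median window has 52.7% and 7, while the windows of the other genes have 3 to 9 CpG sites. A match says only that these letters are there, and no factor binding was measured.

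**Figure D1:**
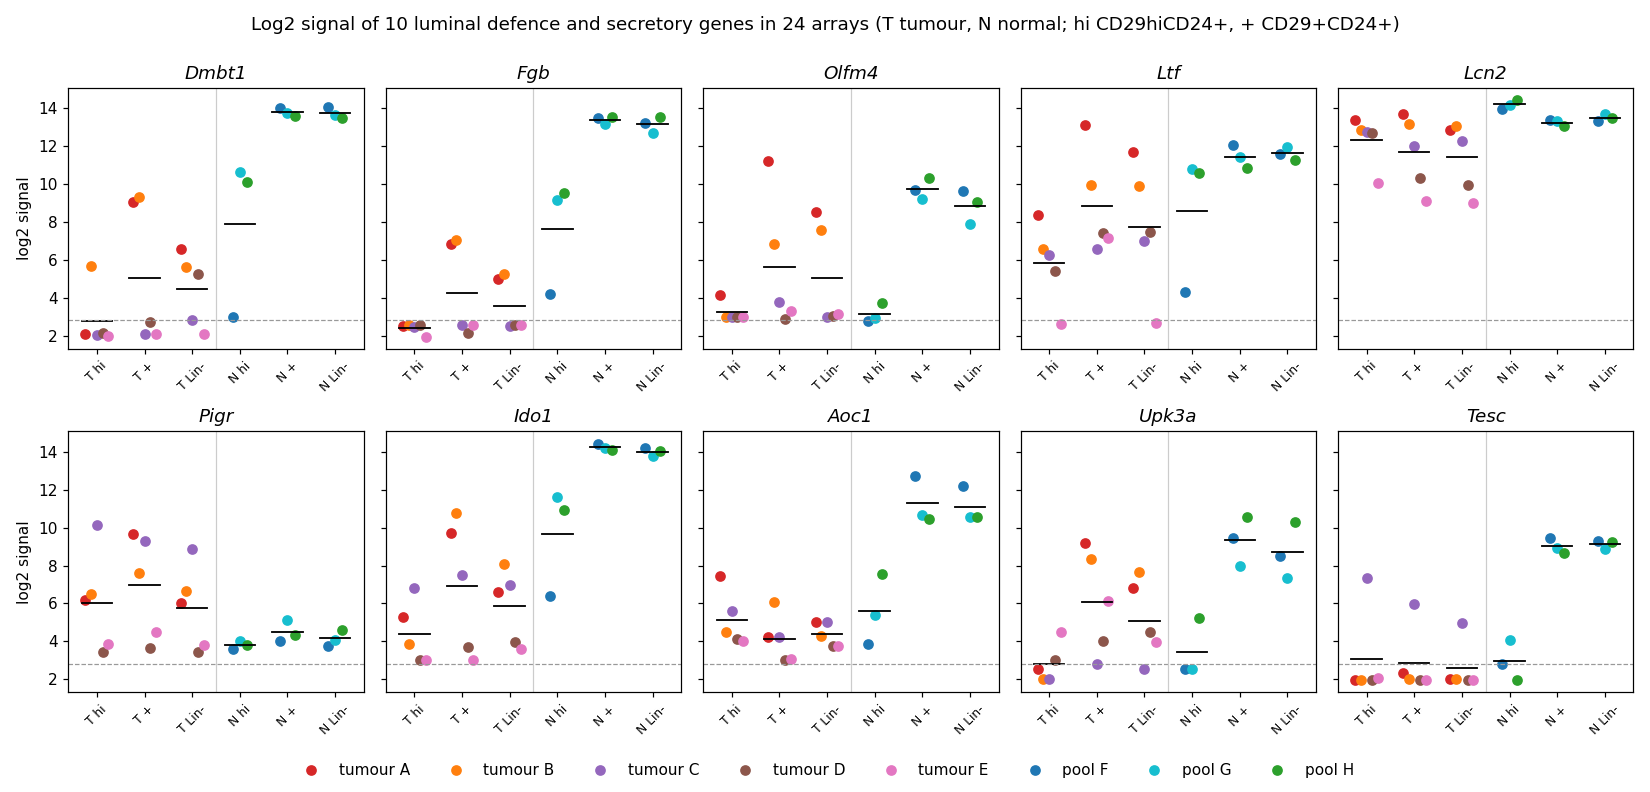
Log2 signal (vertical axis) of the 10 genes in all 24 arrays, by group on the horizontal axis (T tumour, N normal, hi CD29hiCD24+, + CD29+CD24+), with a point per array coloured by tumour or pool, a bar at the group mean and a dashed line at 2.83. Dmbt1, Fgb, Ido1, Aoc1 and Tesc lie lower in every tumour CD29+CD24+ array than in any normal CD29+CD24+ array, while Lcn2 is over 8 in every array and Pigr is highest in tumours A to C.

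Among the secreted defence proteins, Dmbt1, a scavenger receptor protein that binds bacteria and is known from saliva and gut, had one of the wider gaps. Its CD29+CD24+ signals were 9.05, 9.34, 2.09, 2.70 and 2.10 in tumours A to E, against 14.00, 13.77 and 13.61 in pools F to H. Tumours A and B kept a clear signal, C to E lay in the low band, and no tumour array reached a normal one. In CD29hiCD24+ cells it was in the low band in every tumour but B (5.67), against 2.97, 10.65 and 10.10 in pools F to H. Lin- signals were 6.60, 5.64, 2.85, 5.26 and 2.09 in tumours A to E, against 13.52 to 14.05 in pools. The tumour minus normal difference was -8.74 ± 1.77 (SE) in CD29+CD24+, -9.25 ± 1.77 in Lin- and -5.12 ± 1.77 in CD29hiCD24+ cells, and -7.59 ± 1.73 in CD29hiCD24+ cells without the array of pool F.

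Olfm4, a secreted glycoprotein known from intestinal crypts, split the tumours. The CD29+CD24+ signals were 11.25, 6.86, 3.76, 2.88 and 3.33 in tumours A to E, against 9.71, 9.20 and 10.33 in pools F to H. Tumour A lay above all 3 pools and tumour B below them, and C to E were at or just over the low band. The same pair of tumours held the Lin- signal, with 8.52 in A and 7.60 in B, against 9.62, 7.88 and 9.03 in pools F to H. In CD29hiCD24+ cells Olfm4 was near the low band throughout, at 2.98 to 4.17 in tumours and 2.75 to 3.74 in pools. The difference was -4.13 ± 1.48 in CD29+CD24+ and 0.09 ± 1.48 in CD29hiCD24+ cells.

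Ltf, the iron-binding protein lactoferrin, behaved much like Olfm4 in the CD29+CD24+ gate. Its signals there were 13.15, 9.95, 6.58, 7.43 and 7.14 in tumours A to E, against 12.09, 11.43 and 10.84 in pools F to H. Tumour A was the highest of the 8 arrays, and B to E lay below all pools. Tumour CD29hiCD24+ signals were 8.36, 6.57, 6.28, 5.41 and 2.62, against 4.32, 10.79 and 10.58 in pools F to H. Ltf lay in the low band in 2 arrays, the CD29hiCD24+ and Lin- arrays of tumour E. Its tumour minus normal difference was -2.61 ± 1.79 in CD29+CD24+ cells, smaller than the spread among tumours (SD 2.73, n = 5). In CD29hiCD24+ cells it was -2.72 ± 1.79, and -4.84 ± 1.85 without the array of pool F.

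Lcn2, which binds bacterial iron carriers, was high in every population of both sources. The CD29+CD24+ signals were 13.72, 13.18, 12.04, 10.32 and 9.10 in tumours A to E, against 13.38, 13.32 and 13.05 in pools F to H. Tumours A and B matched the pools and C, D and E stepped below them. In normal glands Lcn2 was highest in CD29hiCD24+ cells (13.98, 14.20 and 14.47), above all 3 normal CD29+CD24+ arrays, which was seen for no other of the 10 genes. Tumour CD29hiCD24+ signals were 13.36, 12.86, 12.76, 12.69 and 10.06, below every pool. The tumour minus normal difference was -1.58 ± 0.96 in CD29+CD24+, -1.87 ± 0.96 in CD29hiCD24+ and -2.07 ± 0.96 in Lin- cells.

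Pigr, the receptor that carries dimeric IgA across the epithelium into the lumen, was not high in normal CD29+CD24+ cells. Its signals there were 9.67, 7.63, 9.32, 3.63 and 4.50 in tumours A to E, against 3.99, 5.13 and 4.33 in pools F to H. A, B and C lay above every pool, and D and E lay among or below the pools. Tumour C was high in all 3 populations (10.13 in CD29hiCD24+, 9.32 in CD29+CD24+ and 8.86 in Lin- cells), and no normal array passed 5.13. A second Pigr probe set gave the same picture at lower signal, with 6.85, 3.97 and 4.42 in CD29+CD24+ cells of tumours A to C, against 2.14 to 2.24 in the pools. The tumour minus normal difference of 2.46 ± 1.45 in CD29+CD24+ cells was smaller than the spread among tumours (SD 2.76, n = 5). Markers of plasma cells, the source of the IgA that Pigr carries, were at or near background: Mzb1 stayed under 2.83 in all 24 arrays, and Jchain passed it in 1, at 3.71 in CD29+CD24+ cells of tumour D.

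Ido1, the enzyme that opens the tryptophan ring on the way to kynurenine and is known to be induced by interferon gamma, was even across the pools in normal CD29+CD24+ and Lin- cells but not in CD29hiCD24+ cells. The CD29+CD24+ signals were 9.73, 10.77, 7.52, 3.69 and 3.01 in tumours A to E, against 14.42, 14.21 and 14.08 in pools F to H. All 5 tumours lay below all pools, with B highest and E lowest. Lin- signals had the same ends, at 6.59, 8.09, 6.98, 3.96 and 3.58 in tumours A to E, against 14.22, 13.78 and 14.03 in pools F to H. The tumour minus normal difference was -7.29 ± 1.55 in CD29+CD24+, -8.17 ± 1.55 in Lin- and -5.24 ± 1.55 in CD29hiCD24+ cells, and -6.87 ± 1.65 in CD29hiCD24+ cells without the array of pool F. CD29hiCD24+ signals were 5.31, 3.88, 6.82, 3.01 and 3.002 in tumours A to E, against 6.38, 11.60 and 10.95 in pools F to H, so that pool F lay among the tumours.

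The rest of the tryptophan pathway was for the most part not detected. Of 12 listed genes 4 were measured, and Kmo, Haao, Qprt, Aadat and Ido2 stayed in the low band in all 24 arrays, while Kynu and Tdo2 passed 2.83 in 1 array each. In tumour against normal CD29+CD24+ cells 3 of the 4 measured genes fell and 0 rose, where 27.1% of all genes fell. Wars, the tryptophanyl-tRNA synthetase, averaged 7.19 in tumours and 9.60 in pools, a difference of -2.41 ± 0.21 (limma adjusted p = 6.96e-09). Kyat3 (-1.91 ± 0.40) and Afmid (-0.76 ± 0.26) fell as well. The Afmid call was lost in 4 of 16 alternative settings.

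Aoc1, the diamine oxidase that breaks down histamine and putrescine, was low in the CD29+CD24+ gate of every tumour. Its CD29+CD24+ signals were 4.23, 6.09, 4.24, 3.01 and 3.08 in tumours A to E, against 12.72, 10.67 and 10.45 in pools F to H. Unlike Olfm4 and Ltf, it was no higher in tumour A than in C, and the groups were far apart. In CD29hiCD24+ cells it was 7.44, 4.51, 5.62, 4.12 and 4.04 in tumours, against 3.87, 5.39 and 7.58 in pools, and the groups overlapped fully. The tumour minus normal difference was -7.15 ± 0.86 in CD29+CD24+, -6.72 ± 0.86 in Lin- and -0.47 ± 0.86 in CD29hiCD24+ cells, the last being 0.52 ± 0.92 without pool H. Other polyamine genes moved both ways in CD29+CD24+ cells, with 5 higher and 3 lower of 11 measured, where 16.4% of all genes were higher and 27.1% lower, and a median of 0.22, against -0.01 for all genes. Smox, the spermine oxidase, rose by 3.35 ± 0.48, Azin1 by 2.69 ± 0.26, Sat1 by 1.80 ± 0.24 and Odc1, which makes putrescine, by 1.54 ± 0.15. Arg1 (-2.63 ± 0.83) and Arg2 (-1.75 ± 0.46), the arginases, fell, and the Arg1 call was lost in 2 of 16 alternatives.

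Fgb, the fibrinogen beta chain, is a plasma protein gene known from liver. Its CD29+CD24+ signals were 6.87, 7.07, 2.57, 2.15 and 2.59 in tumours A to E, against 13.49, 13.18 and 13.54 in pools F to H. A and B kept some signal, C to E were in the low band, and the groups did not overlap. In CD29hiCD24+ cells all 5 tumours lay in the low band (1.93 to 2.58), against 4.21, 9.17 and 9.52 in pools F to H. The tumour minus normal difference was -9.15 ± 1.16 in CD29+CD24+, -9.58 ± 1.16 in Lin- and -5.22 ± 1.16 in CD29hiCD24+ cells, and -6.93 ± 1.11 in CD29hiCD24+ cells without the array of pool F. Since most tumour signals sit in the low band, these differences are compressed.

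Of the partner chains, Fgg followed Fgb and Fga did not appear. Fgg averaged 7.70 in tumour and 13.99 in normal CD29+CD24+ cells, a difference of -6.29 ± 0.98 (limma adjusted p = 2.28e-05). The Fga probe set stayed in the low band in all 24 arrays, its highest value being 2.55. Itih2, a hyaluronan-binding plasma protein, fell by 5.81 ± 0.76 and F2, prothrombin, by 1.64 ± 0.24 in the same comparison, so that all 3 measured of the 12 listed plasma protein genes fell, where 27.1% of all genes did. The liver markers Alb, Apoa1 and Ahsg were in the low band throughout, at 2.46 or less in every array. Ttr, transthyretin, another liver marker, was in the low band in every array but those of tumour C, at 6.67 in CD29hiCD24+, 7.17 in CD29+CD24+ and 4.19 in Lin- cells.

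Upk3a, a uroplakin that stiffens the surface membrane of bladder epithelium, was kept by tumours A and B. Its CD29+CD24+ signals were 9.21, 8.34, 2.78, 4.01 and 6.14 in tumours A to E, against 9.46, 7.98 and 10.59 in pools F to H. A and B lay inside the normal range, D and E lay below it, and C was in the low band. In CD29hiCD24+ cells it was 4.48 in tumour E and 3.01 or less in the others, against 2.52, 2.54 and 5.26 in pools F to H, near background in both. Of its family, Upk2 averaged 2.07 in tumour and 4.21 in normal CD29+CD24+ cells (difference -2.14 ± 0.10, limma adjusted p = 6.10e-13), while the Upk1a difference was 0.06 ± 0.14 and the Upk1b difference -0.11 ± 0.45. The Upk3b probe sets were in the low band throughout.

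Tesc encodes tescalcin, a calcium-binding protein that partners a sodium-proton exchanger. Its CD29+CD24+ signals were 2.33, 1.99, 5.97, 1.94 and 1.97 in tumours A to E, against 9.47, 8.91 and 8.66 in pools F to H. All tumours but C were in the low band, and C was still below every pool. Tumour C also held the signal in CD29hiCD24+ (7.33) and Lin- cells (4.99), and no other tumour array passed 2.33. Normal CD29hiCD24+ signals were 2.82, 4.08 and 1.95 in pools F to H. The weaker of the 2 Tesc probe sets stayed in the low band in every tumour array, tumour C included, so the tumour C signal rests on 1 probe set. That weaker set passed 4.27 in no array. It was also in the low band in CD29+CD24+ cells of pool H (2.02), where the other gave 8.66. It therefore cannot decide on the tumour C signal. The tumour minus normal difference was -6.17 ± 1.09 in CD29+CD24+, -6.56 ± 1.09 in Lin- and 0.10 ± 1.09 in CD29hiCD24+ cells, the last being -0.98 ± 0.32 without tumour C.

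**Figure D2:**
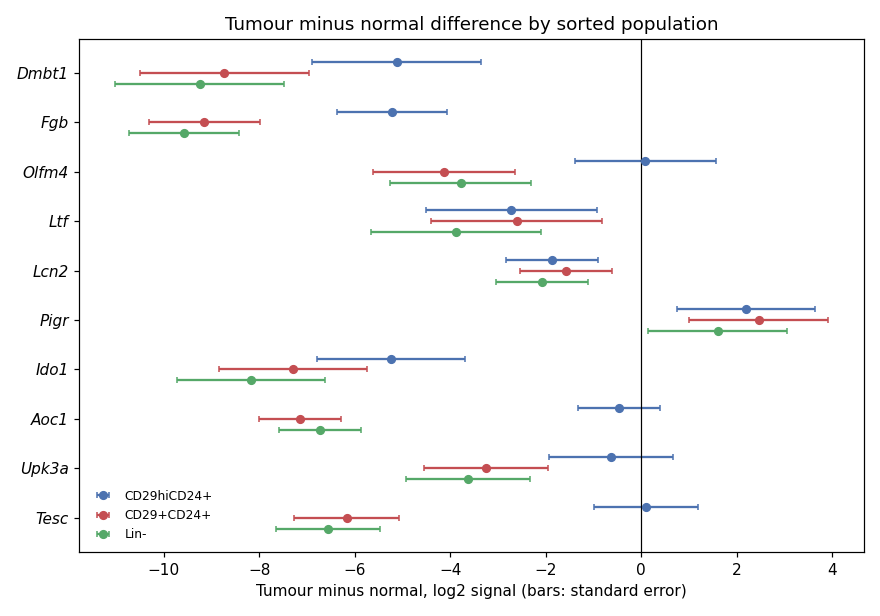
Tumour minus normal difference in log2 signal (horizontal axis) for each gene in CD29hiCD24+, CD29+CD24+ and Lin- cells, with bars of 1 standard error from the fit over 24 arrays. Fgb, Dmbt1 and Ido1 lie at -5.12 or below in all 3 populations, Aoc1 and Tesc lie below -6 in CD29+CD24+ and Lin- cells and near 0 in CD29hiCD24+ cells, and Pigr is positive in all 3 in this fit.

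Dmbt1, Fgb and Ido1 averaged lower in tumours in all 3 populations. So did Ltf and Lcn2, by smaller differences, from -3.88 (Ltf in Lin- cells) to -1.58 (Lcn2 in CD29+CD24+ cells). Olfm4, Aoc1, Upk3a and Tesc averaged lower in tumour CD29+CD24+ and Lin- cells, while their tumour minus normal differences in CD29hiCD24+ cells ran from -0.63 (Upk3a) to 0.10 (Tesc). In CD29+CD24+ cells 7 of the 10 passed an adjusted p of 0.05 as lower (all but Ltf, Lcn2 and Pigr), where 27.1% of all genes were called lower and 43.5% called at all, and 5 did not overlap, where 26.7% of all genes did not overlap in that direction. In Lin- cells 7 were called lower (26.6% of all genes, and 40.6% called in either direction) and 6 did not overlap (25%), the sixth being Lcn2. In CD29hiCD24+ cells 3 were called lower (22.9%, and 38.6% in either direction) and 2 did not overlap (21.3%). These counts follow from how the genes were chosen, and nothing is read from them. When a tumour or pool was left out, the CD29+CD24+ count of 7 ran from 5 to 7 and the Lin- count of 7 from 5 to 9. The CD29hiCD24+ count of 3 was 1 without pool G or without pool H, and 3 without the array of pool F. The median difference of the 10 genes was -5.15 in CD29+CD24+, -5.22 in Lin- and -1.25 in CD29hiCD24+ cells, against -0.01, -0.08 and -0.01 for all genes.

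The arrays also carry running numbers in the labels, in 3 ranges: tumours A and B, tumours C and D, and tumour E with all pools. Tumour E, the only tumour in the range of the pools, was at or under 7.14 in CD29+CD24+ cells for each of these genes but Lcn2 (9.10). With the range as a block, the level of the tumours against the pools rests on tumour E, the other tumours adding only to the differences between gates. The standard errors of that fit therefore do not measure the spread between tumours. In it, the tumour minus normal difference of each gene in CD29+CD24+ cells was lower than without the block, except that of Upk3a (-3.04 ± 1.29, against -3.25 ± 1.30). That of Lcn2 was -4.01 ± 0.54, against -1.58 ± 0.96 without it, and that of Ltf was -5.95 ± 1.46, against -2.61 ± 1.79. Under this block, and so at the level of tumour E, the difference of Pigr was 0.26 ± 1.63 in CD29+CD24+ cells, against 2.46 ± 1.45 without it. In CD29hiCD24+ cells it was -0.003 ± 1.63, against 2.20 ± 1.45. In Lin- cells it turned to -0.60 ± 1.63, against 1.60 ± 1.45. Tumours A and B share a range as well as their higher signals, and the tumours and their range cannot be told apart.

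Other mucosal defence genes did not share a direction. Of 36 listed, 32 were measured, and in tumour against normal CD29+CD24+ cells 9 fell (27.1% of all genes) and 6 rose (16.4%), with a median of -0.52. Among those that fell were Cxcl15 (-7.00 ± 1.38), a chemokine of mucosal epithelium, Wfdc2 (-5.53 ± 1.31), a secreted protease inhibitor, Hp (-5.00 ± 1.43), haptoglobin, Tlr4 (-4.94 ± 0.60), the endotoxin receptor, and Reg3g (-4.66 ± 0.39), an antibacterial lectin, with limma adjusted p from 4.47e-09 (Reg3g) to 0.00708 (Hp). Those that rose most were Slpi (6.44 ± 0.45), a secreted protease inhibitor, Il1rn (6.05 ± 0.55), the interleukin 1 receptor antagonist, Duoxa1 (5.36 ± 0.33) and Duox1 (4.38 ± 0.45), which together make hydrogen peroxide at epithelial surfaces, with adjusted p at or under 1.04e-07. Lpo, a milk peroxidase, was seen in tumour C alone, at 8.47 in CD29hiCD24+, 7.52 in CD29+CD24+ and 7.25 in Lin- cells, and was 2.12 or less in the other 21 arrays.

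Among 20 measured regulators known to act on such promoters in other tissues, 7 rose (16.4% of all genes) and 5 fell (27.1%) in tumour CD29+CD24+ cells, with a median of 0.03. Spdef, an ETS factor of secretory cells, averaged 2.62 in tumours and 7.82 in pools (-5.20 ± 0.40, limma adjusted p = 1.00e-09), and Elf5, the ETS factor of luminal progenitors, 5.87 and 9.08 (-3.21 ± 0.84, adjusted p = 0.00377). Ehf, another ETS factor, moved the other way, at 12.40 in tumours and 9.67 in pools (2.73 ± 0.58, adjusted p = 0.000564). The C/EBP genes Cebpa (4.15 ± 0.43), Cebpb (2.22 ± 0.28) and Cebpd (1.94 ± 0.29) all rose. Irf1, a mediator of interferon gamma, differed by -0.47 ± 0.44 and was not called. Whether any of them bears on the 10 genes was not tested.

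In the normal glands 8 of the 10 genes, all but Lcn2 and Pigr, were lower in every CD29hiCD24+ array than in any CD29+CD24+ array. In CD29hiCD24+ against CD29+CD24+ cells 7 were called lower (25.3% of all genes, and 46.6% called in either direction) and 8 did not overlap in that direction, as 31.8% of all genes did. Lcn2 alone lay higher without overlap (26.4% of all genes). Tesc averaged 2.95 ± 1.07 in CD29hiCD24+ and 9.01 ± 0.42 in CD29+CD24+ cells (SD, n = 3 each), Upk3a 3.44 ± 1.57 and 9.34 ± 1.31, Olfm4 3.14 ± 0.53 and 9.75 ± 0.57, and Aoc1 5.61 ± 1.87 and 11.28 ± 1.26. Dmbt1, Fgb, Ido1 and Ltf kept a high signal in the CD29hiCD24+ arrays of pools G and H, where luminal markers were also higher than in F. Dmbt1, for example, was 2.97, 10.65 and 10.10 in pools F to H. Without the array of pool F the gate difference was -3.42 ± 1.89 for Dmbt1, against -5.89 ± 1.98 with it, and -2.97 ± 1.80 for Ido1, against -4.60 ± 1.73. It was -4.06 ± 1.21 for Fgb, against -5.77 ± 1.30, and -0.77 ± 2.02 for Ltf, against -2.89 ± 1.999. Without that array 5 genes were called rather than 7. With the 3′ minus 5′ signal of actin as a covariate the count was 3. That actin signal, a sign of shortened RNA, was 2.53 ± 0.35 in normal CD29hiCD24+ and 1.61 ± 0.21 in normal CD29+CD24+ arrays (SD, n = 3 each). In tumours it was 2.03 ± 0.305 in CD29hiCD24+ and 2.06 ± 0.359 in CD29+CD24+ arrays (SD, n = 5 each). Its mean thus differed between tumour and normal arrays of these gates as well. The part of this actin signal in the gate difference and in the tumour against normal differences was not tested beyond this fit.

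Ordered by group mean, Dmbt1, Fgb and Ido1 ran alike: normal CD29+CD24+, normal Lin-, normal CD29hiCD24+, tumour CD29+CD24+, tumour Lin- and tumour CD29hiCD24+. The top neighbours differed by 0.05 (Dmbt1), 0.25 (Fgb) and 0.23 (Ido1), and their arrays overlapped. The standard errors of 1.30 or more come from a spread shared by all groups, while the SDs of this normal pair ran from 0.17 to 0.42. Normal CD29hiCD24+ arrays overlapped tumour CD29+CD24+ arrays for all 3 genes, and the 3 tumour groups overlapped one another. Olfm4 and Upk3a had the same top pair, overlapped by tumour A and, for Upk3a, by tumour B too. Tumour CD29+CD24+ and Lin- cells followed, with the CD29hiCD24+ cells of both sources lowest. Aoc1 and Tesc were highest in the same pair, and their other groups, with means from 4.13 to 5.61 for Aoc1 and from 2.59 to 3.05 for Tesc, overlapped one another. Ltf was highest in normal Lin- cells (11.62), followed by normal CD29+CD24+ (11.45), tumour CD29+CD24+ (8.85), normal CD29hiCD24+ (8.56), tumour Lin- (7.75) and tumour CD29hiCD24+ cells (5.85), with no neighbours apart beyond their spread. Pigr ran from tumour CD29+CD24+ (6.95), CD29hiCD24+ (6.02) and Lin- cells (5.76) to normal CD29+CD24+ (4.49), Lin- (4.15) and CD29hiCD24+ cells (3.82), again with no neighbours apart beyond their spread. Lcn2 was ordered by source, with the 3 normal means (14.21, 13.51 and 13.25) above the 3 tumour means (12.35, 11.67 and 11.43), though the lowest normal arrays overlapped the highest tumour ones.

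The gates within tumours were tested, since the choice of the genes names no difference between them. The tumour signals themselves entered that choice, as the genes were chosen as lost in tumours, and its effect on these tests is not known. In tumour CD29hiCD24+ against tumour CD29+CD24+ cells, 0 of the 10 passed an adjusted p of 0.05 in the limma fit, where 4.19% of all genes did. At an unadjusted p under 0.05 there was 1 of 10 (Upk3a), against 19.5% of all genes. The differences were -3.28 ± 1.13 for Upk3a (adjusted p = 0.102), -3.00 ± 1.55 for Ltf (adjusted p = 0.298), -2.54 ± 1.34 for Ido1, -2.38 ± 1.28 for Olfm4, -2.27 ± 1.53 for Dmbt1 and -1.84 ± 1.01 for Fgb. Those of Pigr (-0.93 ± 1.25), Tesc (0.21 ± 0.94), Lcn2 (0.67 ± 0.83) and Aoc1 (1.01 ± 0.75) were smaller, and the 95% interval of Aoc1 ran from -0.54 to 2.57. The median of the 10 was -2.06, against 0.00470 for all genes. Of the related lists, 1 of 32 defence genes fell, Ceacam1 (-1.82 ± 0.46, limma adjusted p = 0.0308), an adhesion molecule of epithelium, and 1 of 20 regulators, Elf5 (-2.88 ± 0.73, adjusted p = 0.0305), where 1.94% of all genes fell. The Elf5 call was lost when any of the 5 tumours was left out, and the Ceacam1 call in 7 of 15 alternatives.

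The 3 populations of a letter come from the same tumour and were also compared as pairs. With the tumour as a block, Ltf (limma adjusted p = 0.0200) and Upk3a (adjusted p = 0.0392) were called lower in CD29hiCD24+ cells, 2 of 10, where 15.5% of all genes were called and 7.71% called lower. Ltf was lower in the CD29hiCD24+ gate of all 5 tumours, with differences of -4.79, -3.39, -0.31, -2.01 and -4.52 in A to E. Upk3a was lower in all 5 as well, by differences of -6.66 in A and -6.31 in B, and between -1.66 (E) and -0.78 (C) in the others. Dmbt1 and Ido1 were lower in 5 of 5 too, but the difference was -0.03 for Dmbt1 in tumour C and -0.005 for Ido1 in tumour E, where signals were near background in both gates. Aoc1 was higher in the CD29hiCD24+ gate in 4 of 5 tumours, all but B.

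In tumour CD29+CD24+ against tumour Lin- cells 0 of 10 genes were called, where 0.215% of all genes were, and 0 had an unadjusted p under 0.05, against 3.86% of all genes. The block fit also called 0 of 10, where it called 0.0371% of all genes. The differences ran from -0.24 ± 0.75 (Aoc1) to 1.19 ± 1.25 (Pigr), and Pigr was higher in the CD29+CD24+ gate in 5 of 5 tumours. In tumour CD29hiCD24+ against tumour Lin- cells the count was again 0 of 10, where 8.36% of all genes were called, with 0 at an unadjusted p under 0.05 (22.7% of all genes) and 0 in the block fit (19% of all genes). Upk3a had the most negative difference, -2.27 ± 1.13 (adjusted p = 0.238). These misses do not show that the gates are alike, since the 95% interval of Dmbt1 in CD29hiCD24+ against Lin- cells, for example, ran from -4.90 to 1.49.

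**Figure D3:**
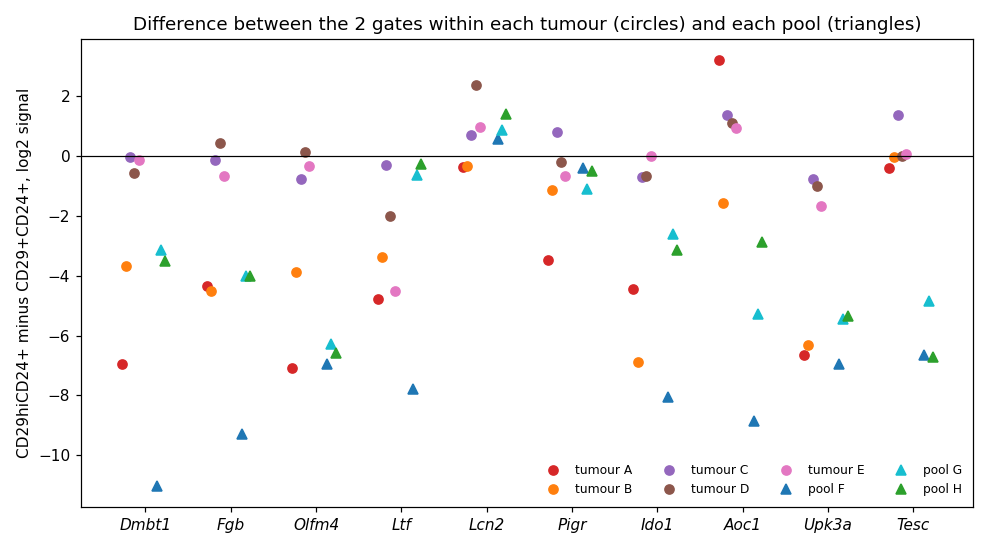
CD29hiCD24+ minus CD29+CD24+ difference in log2 signal (vertical axis) within each tumour (circles) and each pool (triangles), by gene. Tumours A and B show differences of -3.39 or below for Dmbt1, Fgb, Olfm4, Ido1, Upk3a and Ltf, while tumours C to E lie no lower than -0.76 for Dmbt1, Fgb, Olfm4 and Ido1, and Aoc1 is negative in all 3 pools and positive in 4 tumours.

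The main divide among tumours was between A and B on the one side and C, D and E on the other. Counting genes with a signal over 8 in CD29+CD24+ cells gave 7 in tumour A, 5 in B, 2 in C, 1 in D and 1 in E, against 9, 8 and 9 in pools F to H. The mean over the 10 genes was 8.92, 8.12, 5.69, 4.18 and 4.30 in tumours A to E, against 11.3, 10.8 and 10.9 in pools F to H. In CD29hiCD24+ cells the tumour means were 5.39, 4.95, 5.85, 4.13 and 3.70, so A and B did not stand out there. Luminal markers followed the same divide in the CD29+CD24+ gate: the mean over 8 of them, all over 2.83 in every array, was 12.75 and 12.51 in tumours A and B and from 10.06 to 10.25 in C to E, against 14.10 to 14.22 in the pools. The mean over 8 luminal progenitor markers was 10.81 and 9.87 in A and B and from 7.43 to 8.44 in C to E, against 10.70 to 11.12 in the pools. These 8 did not share a direction in tumour against normal CD29+CD24+ cells, with 4 called lower (27.1% of all genes) and 2 higher (16.4%). Markers of hormone-sensing luminal cells split the tumours the same way, with a mean over 6 of them of 8.15 in both A and B and from 5.597 to 5.958 in C to E, against 10.67 to 11.23 in the pools. Between tumour and normal CD29+CD24+ cells, squamous keratinocyte markers ran opposite to most of the 10 genes, while Pigr averaged higher in tumours too. Of 8 listed, 6 rose and 0 fell (16.4% and 27.1% of all genes), among them Krtdap by 10.03 ± 0.44 and Krt10 by 5.02 ± 0.86. Their mean was 9.64, 9.02, 11.06, 9.61 and 11.19 in tumours A to E, against 5.96 to 6.09 in the pools. The part of these cell types in the results was not tested.

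Neutrophil and macrophage markers were read because Ltf, Lcn2 and Olfm4 can have a myeloid source. The mean of the 5 measured of 14 neutrophil markers ran from 6.24 to 7.92 in tumour CD29+CD24+ arrays, against 2.95 to 3.55 in normal ones, and was carried by S100a8 and S100a9, which squamous epithelium also makes. S100a8 averaged 12.21 in tumour and 4.15 in normal CD29+CD24+ cells, and the S100a9 difference was 8.81. In tumour against normal CD29hiCD24+ cells 3 of the 5 were called higher (15.6% of all genes), with a median difference of 5.33. In Lin- cells 3 were called higher (13.9% of all genes), with a median of 2.92. The rise in these populations thus went beyond S100a8 and S100a9, and its source was not tested. The granule genes Elane, Ctsg, Camp, Ngp and Mmp8 were in the low band in all 24 arrays, and Mpo and Cxcr2 passed 2.83 in 1 array each, at 2.94 and 2.95. The macrophage mean lay between 3.09 and 4.56 in the CD29+CD24+ gate of tumours, against 3.15 to 3.27 in that of pools.

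**Figure D4:**
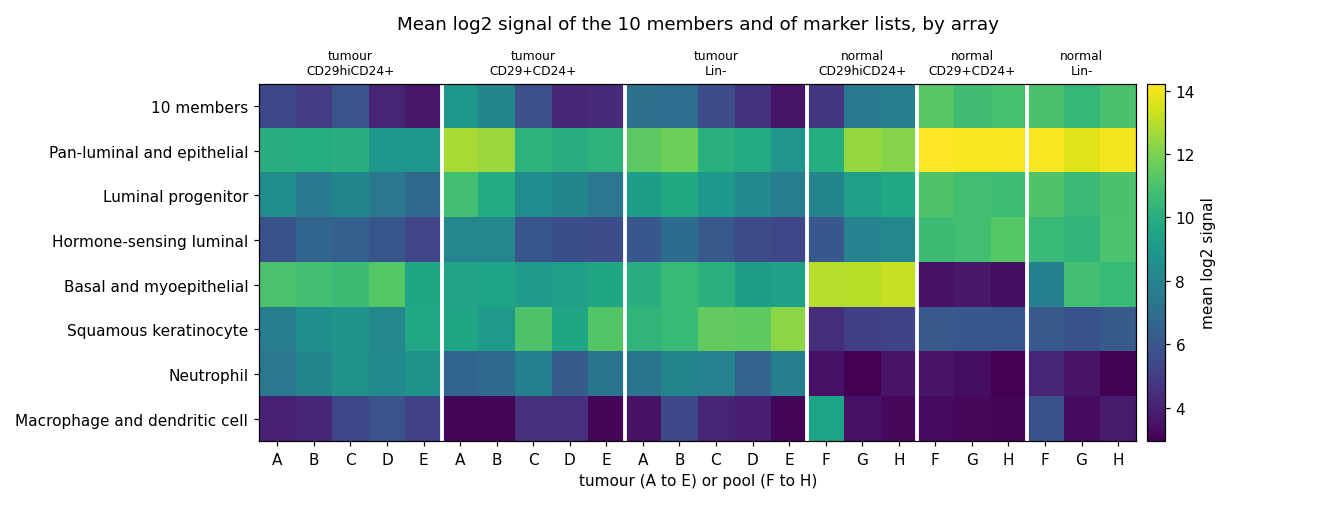
Mean log2 signal (colour) of the 10 genes and of 7 marker lists in each of the 24 arrays, ordered by group and by tumour or pool letter. The 10 genes and the list of Krt8 and other luminal markers are highest in normal CD29+CD24+ and Lin- arrays and next in CD29+CD24+ arrays of tumours A and B, the macrophage list reaches 9.48 in the normal CD29hiCD24+ array of pool F, and the squamous list is higher in every tumour array than in any normal one.

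The genes whose profile over the 24 arrays was most like the mean profile of the 10 were Smim22 (Pearson r = 0.982), AW112010 (0.979), Wfdc2 (0.974), Cldn3 (0.963), Gipc2 (0.963), Cxcl15 (0.960), Tlcd4 (0.959) and Pkp2 (0.958). The 24 arrays come from 8 sources and share the divide between tumour and normal, so r is a description. Cldn3 is a tight junction claudin and Pkp2 a desmosome plaque protein. Wfdc2 averaged 7.98 in tumour and 13.51 in normal CD29+CD24+ cells, and Smim22 7.90 and 13.43. The 10 genes themselves fitted their common profile to different degrees, from 0.963 (Ido1), 0.931 (Fgb) and 0.927 (Dmbt1) through 0.879 (Olfm4), 0.871 (Aoc1), 0.870 (Ltf), 0.787 (Upk3a), 0.769 (Tesc) and 0.670 (Lcn2) to 0.058 (Pigr), each of them being part of that mean.

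**Figure D5:**
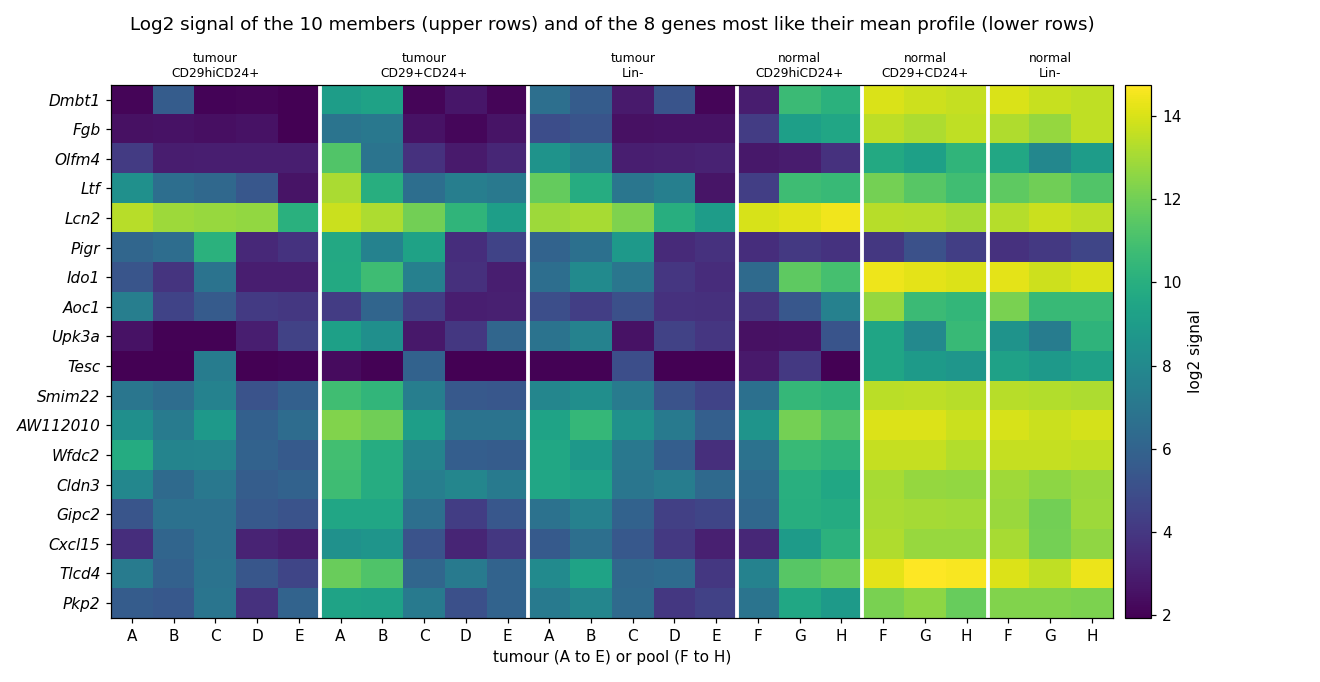
Log2 signal (colour) of the 10 genes and, under them, of the 8 genes most like their mean profile, in the 24 arrays ordered by group and letter. The 8 genes are high in all normal CD29+CD24+ and Lin- arrays. Next come the CD29hiCD24+ arrays of pools G and H and the CD29+CD24+ arrays of tumours A and B. Each of the 8 is lower again in the remaining arrays. For Wfdc2 the margin is narrow (9.80 in CD29hiCD24+ cells of tumour A, against 9.88 in CD29+CD24+ cells of B). Among the 10 genes, Dmbt1, Fgb and Ido1 show this order, while Olfm4, Ltf, Lcn2, Pigr, Aoc1, Upk3a and Tesc depart from it.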

How the data were processed

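Expression was measured on 24 Affymetrix arrays. The values used are the log2 signals per probe set that the authors deposited, already background-corrected and normalised, and they run from 0.489 to 16.06. RMA, GCRMA and Partek are named in the submitters' processing notes, and no source used here gives their versions, roles or order. Such processing leaves little signal at the low end, so differences that start there are compressed. The range of the values is what shows the log2 scale.

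Of 45101 probe sets, 34945 had 1 gene name, 932 several and 9160 none, and 64 were controls. Probe sets with 1 gene name and over 2.83 in at least 3 arrays were kept (24278), and the one with the highest mean stood for its gene. limma 3.58.1 in R 4.3.3 fitted a mean per group over 24 arrays (lmFit, contrasts.fit, eBayes with trend), with Benjamini-Hochberg adjustment over 13485 genes and calls under 0.05. Values after ± are standard errors of a difference unless SD is written. The main fit takes the spread of a gene from all groups together, so these errors can differ from the spread of the groups compared. The script was tested on simulated data.

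The members and lists were chosen with earlier results of these data known. Named genes are the 10 members, the 8 most correlated with their mean standardised profile, up to 6 called genes of a list by size, and partner genes of a member. Promoter windows are from RefSeq, build GRCm38.p6.

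Letters in the titles tie the 3 populations to a tumour or pool, and 2 letterless titles of the third pool were taken as H by elimination. After subtracting each group's mean, 2 arrays from 1 tumour correlated at 0.578 (median of 15 pairs, lowest 0.359) and 2 from unlike tumours at -0.167 (60 pairs). In pools these medians were 0.142 (9 pairs, lowest -0.0381) and -0.0705 (18 pairs). The letters name the same tumour or pool, so they pair the arrays. No arrays were identical. Alternatives were no filter, quantile normalisation, the letter as a block, only the groups compared, no variance trend, another probe set, an actin covariate, label number ranges as a block, leaving out each tumour or pool, and, chosen after seeing the data, leaving out the normal CD29hiCD24+ array of pool F.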

Additional observations from a re-analysis of the deposited data

Results flagged for a closer look

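Of 30 groups of 5 tumour arrays (10 genes in 3 populations), 7 held an array far from the other 4 by Dixon's test at the 95% level. Among independent groups with a Gaussian spread, chance gives about 1 in 20 (5%). Of the 7 flagged, 3 belong to Tesc in tumour C, which had 7.33 in CD29hiCD24+ cells (next highest 2.04), 5.97 in CD29+CD24+ cells (next 2.33) and 4.99 in Lin- cells (next 2.03). In CD29hiCD24+ cells Dmbt1 was 5.67 in tumour B (next highest 2.13) and Olfm4 was 4.17 in tumour A (next 3.01). Low arrays were those of tumour E in the same gate, with 1.93 for Fgb (next lowest 2.44), all inside the low band, and 10.06 for Lcn2 (next lowest 12.69). The groups are not independent, since they share tumours and genes. In all flagged groups but that of Lcn2, the other 4 arrays lay in or near the low band. Nothing is therefore read from the share flagged against 5%.

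Aoc1 in CD29hiCD24+ against Lin- cells moved in opposite ways, higher in all 5 tumours by a mean of 0.78 and lower in all 3 pools, with a mean difference of -5.48. This difference between tumours and pools was not tested.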

How the results depend on the processing

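Among the members' differences under alternative settings, 1083 kept their direction and side of the threshold, or stayed within 1 SD where not tested, 12 moved further, 3 turned in the tested comparisons and 2 became called. With the replicate block, 2 members (Ltf and Upk3a) were called in tumour CD29hiCD24+ against CD29+CD24+ cells in place of 0, and genes called were 2087 (main 565), 5 in CD29+CD24+ against Lin- (main 29) and 2557 in CD29hiCD24+ against Lin- cells (main 1128). It moved no other count past 1.5 times. With only the groups compared these counts were 149, 0 and 465. For CD29+CD24+ against Lin- cells they were 13 with no filter and 15 without the variance trend. Leaving out each tumour or pool gave 207 (without B) to 565, 0 to 83 (without D) and 469 (without E) to 1042, and 0 members in each of these comparisons. Tumour against normal CD29hiCD24+ cells called 1 to 4 members when a tumour or pool was left out (main 3). No count is given with the label number range as a block, where the tumour level rests on tumour E. Normal CD29hiCD24+ against CD29+CD24+ cells called 3 with the actin covariate (main 7). In the tested comparisons the directions that turned, none of them called, were Dmbt1 in tumour CD29+CD24+ against Lin- cells (-0.214 to 1.349 when a tumour or pool was left out, below 0 without B) and Tesc in CD29hiCD24+ against CD29+CD24+ (-0.081 to 0.356) and against Lin- cells (-0.010 to 0.594), both below 0 without C. In the untested tumour against normal comparisons, the range block gave Pigr -0.599 in Lin- (main 1.60) and -0.003 in CD29hiCD24+ cells (main 2.20). In CD29hiCD24+ cells alternatives ran across 0 for Tesc (-0.975 without C to 0.661), Olfm4 (-1.383 with the range block to 0.389), Upk3a (-1.538 to 0.283 without H) and Aoc1 (-1.400 with the range block to 0.516 without H). The normal gate difference of Pigr ran from -0.834 to 0.496 with the actin covariate. The cause was not tested. Low-band signals limit differences that start from them.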
